A study of Mus musculus with 15 samples.

Results

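The 6 mouse genes Suv39h1, Suv39h2, Ehmt1, Ehmt2, Setdb1 and Setdb2 encode enzymes that methylate lysine 9 of histone H3 (H3K9). They were chosen by name, and all 6 were found among the 36118 gene identifiers of the expression table. Their levels were followed in whole testes of C57/BL6 mice, with 15 RNA sequencing libraries in 5 groups of 3: Control and the treatments MTX, HMS-I1, AA and TSA. The study asked how modifications of histones H3 and H4 bear on chromosome organisation in the prophase of the first meiotic division. The labels give no other genotype or allele, and no age, dose, route, duration or spelled-out name for any treatment. The 3 libraries titled HMS-I1 carry HMS-I1, HMS-I2 and HMS-I3 in the treatment field, and were grouped by title. The labels do not say whether the libraries of a group came from separate animals, so the tests measure only the spread between these libraries.

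H3K9 methylation marks compact, transcriptionally silent chromatin, and the di- and trimethylated forms are bound by proteins of the HP1 family. SUV39H1 and SUV39H2 place the trimethyl mark at pericentric repeats. Mice that lack both have spermatocytes that fail in pairing their chromosomes, and Suv39h2 is known for its expression in the testis. EHMT1 (GLP) and EHMT2 (G9a) act together as a complex that places mono- and dimethylation in gene-rich chromatin, and germ cells without G9a arrest in meiotic prophase. SETDB1 is recruited through TRIM28 to retrotransposons and, in male meiosis, to the silenced sex chromosomes. SETDB2 is a related protein with a methyl-DNA-binding domain and a split SET domain.

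The 2 Suv39h genes lie on different chromosomes, Suv39h1 (ENSMUSG00000039231) on X and Suv39h2 (ENSMUSG00000026646) on chromosome 2. They are shown first, by the DNA upstream of their starts, because their levels ran in opposite directions across the larger part of the libraries. All 6 members matched the RefSeq promoter table of build GRCm38.p6, Suv39h1 and Ehmt2 with 2 starts each, and for Suv39h1 the start farther upstream is used. Each sequence runs 5′ to 3′ on the strand of the gene (the minus strand for both), from 250 to 51 bases before the RefSeq start, at chrX:8074811-8075010 and chr2:3475037-3475236. Capitals mark the matches to the 4 motifs searched on both strands, which are the CCAAT box (CCAAT), the GC box (GGGCGG), the E-box (CACGTG) and the cAMP response element (TGACGTCA). None of the 4 overlaps another in these stretches.
Suv39h1: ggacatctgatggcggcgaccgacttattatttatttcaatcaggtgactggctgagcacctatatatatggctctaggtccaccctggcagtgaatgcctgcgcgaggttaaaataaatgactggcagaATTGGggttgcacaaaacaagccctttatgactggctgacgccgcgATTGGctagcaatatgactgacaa
Suv39h2: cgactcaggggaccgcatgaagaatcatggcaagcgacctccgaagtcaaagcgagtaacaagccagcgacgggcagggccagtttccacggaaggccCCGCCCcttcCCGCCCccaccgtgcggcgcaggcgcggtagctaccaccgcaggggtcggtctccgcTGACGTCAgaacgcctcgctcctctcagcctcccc
The Suv39h1 stretch has a GC content of 48% and 8 CpG dinucleotides, and holds the CCAAT box on the reverse strand at 120 to 116 and at 74 to 70 bases before the start. The Suv39h2 stretch has a GC content of 67.5% and 21 CpG dinucleotides. It holds the GC box on the reverse strand at 152 to 147 and at 142 to 137 bases, and the palindromic cAMP response element at 85 to 78 bases. Of all 32851 windows of the table, cut to the same 200 bases, 0.828% held the cAMP response element, 4.34% the E-box, 24.6% the GC box and 28.4% the CCAAT box. Of the 6 members, only Suv39h2 held the cAMP response element and only Ehmt2 the E-box. Ehmt2 and Suv39h2 held the GC box, and Setdb1, Setdb2 and Suv39h1 the CCAAT box. These are matches of letters, and no binding was measured here.

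The deposited values are normalised counts, scaled by the authors with DESeq2 so that libraries can be compared, and the number of reads behind them is not known. The libraries fell into 2 sets by the mean level of 60 replication-dependent histone genes. The first set of 6 (Control 1 and 2 and replicate 1 of each treatment) had means of 7.79 to 8.82 on the log2(normalised count + 1) scale. The second set of 9 (Control 3 and replicates 2 and 3 of each treatment) had means of 2.95 to 3.86, and 3.54 to 13.7% of its signal came from mitochondrial genes, against 1.08 to 1.40% in the first set. The labels do not name these sets, and each group holds libraries of both. A difference between groups can thus hold part of a difference between the sets. Values within the sets are therefore given for the members' differences from Control, and several of these changed sign between the sets. Markers of spermatogonia, spermatocytes, round and elongating spermatids and Sertoli cells were above 0 in all groups, as the label of whole testis requires, and the 5 epididymis markers summed to at most 8.26, with Lcn5 and Lcn8 at 0 in every library. In whole tissue, fewer cells of a type and less RNA per cell cannot be told apart.

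Per kilobase of the longest coding transcript, Ehmt2 had the highest level of the 6 in 15 of 15 libraries, at 1606 ± 322 normalised counts per kb (SD over the 15 libraries). Setdb1 followed at 511 ± 115 and Suv39h2 at 380 ± 102. Setdb2 was at 217 ± 42.6, Suv39h1 at 126 ± 31.8 and Ehmt1, the partner of Ehmt2, at 74.8 ± 17.9. On this scale Ehmt2 made up 41.8 to 63.2% of the summed per-kb level of the 6 genes, with a median of 56.1%. Setdb1 ranked second in 10 libraries and Suv39h2 in 5. With the median in place of the longest coding transcript, Suv39h2 came to 758 ± 203 and Setdb1 to 514 ± 116, so that the order of these 2 depends on the transcript assumed. Ehmt2 came to 1695 ± 340 and still ranked first, but its share of the sum depends on the transcript too. The annotation used for lengths is of the older build GRCm38.

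**Figure D1:**
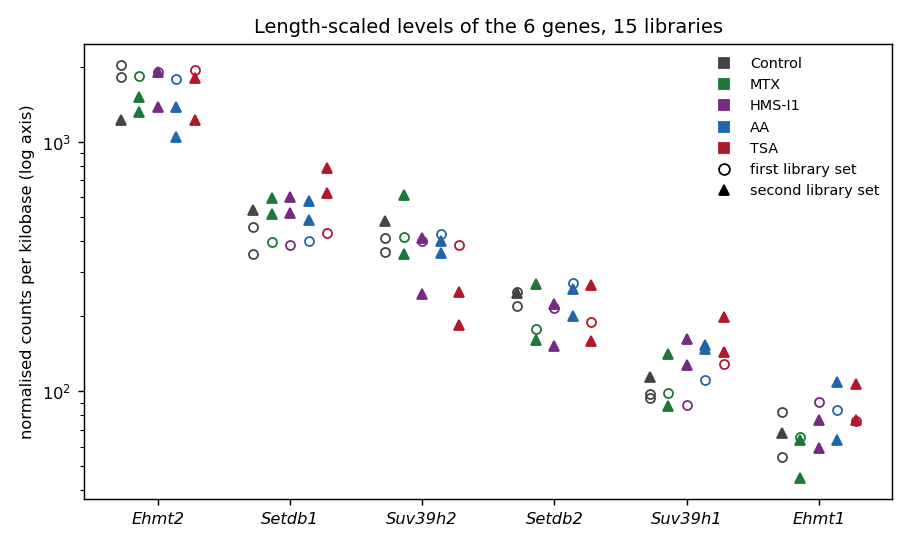
Level of the 6 H3K9 methyltransferase genes in normalised counts per kb of the longest coding transcript (log axis), one point per library with groups by colour and the library sets by marker. Ehmt2 lies above the other 5 genes in every library (lowest value 1043), and Ehmt1 and Suv39h1 have the lowest means (74.8 and 126).

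None of the 6 genes passed the test in any of the 10 comparisons among the 5 groups. The tests were limma-trend on log2(normalised count + 1) in one model of the 15 libraries, two-sided, with Benjamini-Hochberg adjustment over 17896 genes whose mean reached 10, which include all 6 members. In each comparison 0% of the 17896 genes had an adjusted p under 0.05, so the members' count of 0 does not set them apart from other genes. Before adjustment, p was under 0.05 for 98 genes in MTX against Control, 73 in HMS-I1, 143 in AA and 1027 in TSA, and for 109 to 894 genes in the 6 comparisons between treatments. The limma F-test for any difference among the 5 groups gave the members unadjusted p-values from 0.144 (Suv39h2) to 0.806 (Ehmt2), with an adjusted p of 1 for each. That test passed 0 genes, and before adjustment 230 had p under 0.05. The members were steadier than most genes: their SD within groups on the log2 scale was 0.30 to 0.37, against a median of 0.55 over all genes tested and of 0.42 to 0.49 over the 500 genes nearest to each in mean level.

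Suv39h1, whose enzyme trimethylates H3K9 at pericentric chromatin, had normalised counts of 303, 294 and 355 in Control 1, 2 and 3. The TSA libraries had 399, 447 and 618, the AA libraries 344, 460 and 476, the HMS-I1 libraries 276, 397 and 506, and the MTX libraries 308, 272 and 438. All 3 TSA libraries lay above all 3 Control libraries, as did those of 2.36% of genes tested (2.18% lay wholly below). The other treatments overlapped with Control, where 1.32% of genes lay wholly above and 1.15% below in MTX, 1.35% and 1.35% in HMS-I1, and 2.81% and 2.23% in AA. The log2 difference from Control was 0.60 for TSA (SE 0.28, 95% interval -0.02 to 1.21, limma unadjusted p = 0.0554, adjusted p = 0.878). It was 0.42 for AA (interval -0.20 to 1.03), 0.27 for HMS-I1 (-0.35 to 0.88) and 0.07 for MTX (-0.54 to 0.69). The group means ran from Control through MTX, HMS-I1 and AA to TSA, and no neighbours in that order differed beyond their spread. The TSA difference was 0.42 within the first library set (TSA 1 against Control 1 and 2) and 0.56 within the second (TSA 2 and 3 against Control 3), so it lay in the same direction in both. In the same order the AA difference was 0.21 and 0.40. That of HMS-I1 was -0.11 and 0.33 and that of MTX 0.05 and -0.04, so these changed sign between the sets.

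Suv39h2, the paralogue with high expression in the testis, had 1571, 1774 and 2091 normalised counts in Control. TSA 1, 2 and 3 had 1665, 1079 and 796, which places TSA 1 among the Controls and TSA 3 below every other library. TSA 2 lay below every library but TSA 3 and HMS-I1 3. The HMS-I1 libraries had 1729, 1781 and 1062, the AA libraries 1850, 1736 and 1548, and the MTX libraries 1792, 2639 and 1534. Each treatment overlapped with Control. The log2 difference of TSA from Control was -0.68 (SE 0.30, 95% interval -1.33 to -0.02, limma unadjusted p = 0.0442, adjusted p = 0.871). It was -0.28 for HMS-I1 (interval -0.93 to 0.38), -0.08 for AA (-0.73 to 0.58) and 0.11 for MTX (-0.55 to 0.76). The order of the means was TSA, HMS-I1, AA, Control and MTX, from low to high, with no neighbours beyond their spread. TSA against MTX, the ends of that order, gave -0.78 (limma unadjusted p = 0.023, adjusted p = 0.983). Unlike Suv39h1, the TSA difference of Suv39h2 came from 1 library set: it was -0.0041 in the first and -1.17 in the second. In the same order the HMS-I1 difference was 0.05 and -0.60, and the AA difference 0.15 and -0.35. That of MTX was 0.10 and -0.06, so each of these changed sign between the sets.

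**Figure D2:**
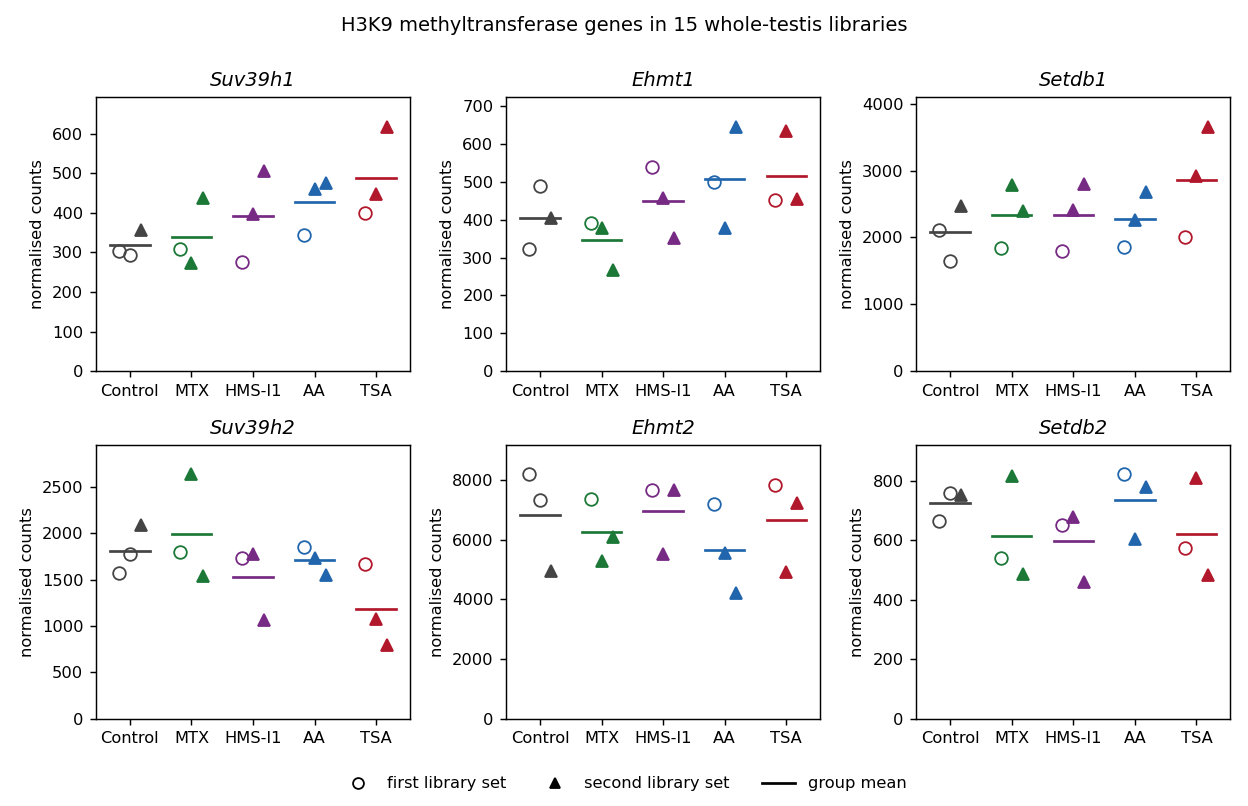
Normalised counts of each of the 6 genes in the 15 libraries, in 5 groups, with the library sets by marker and the group mean as a line. All 3 TSA libraries of Suv39h1 (399 to 618) lie above all 3 Control libraries (294 to 355), while in the other panels every treatment overlaps with Control.

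Round spermatid markers were lower in TSA 2 and TSA 3 than in each of the other 13 libraries, with mean log2 levels of 10.06 and 10.96 against 11.92 to 12.48. Of the 5 round spermatid markers, 5 were lower in TSA than in Control, with a median log2 difference of -1.36. Of these, 4 had an unadjusted limma p under 0.05, but 0 passed adjustment, where the lowest adjusted p was 0.848. Their summed normalised counts were 26567 in TSA 1, 6791 in TSA 2 and 10533 in TSA 3, against 21845 to 30858 in Control. The 5 elongating spermatid markers split by library set, with first-set sums of 568579 to 843733 and second-set sums of 158358 to 363169. Within the first set their mean log2 level was 16.74 in TSA 1 and 16.64 and 16.89 in Control 1 and 2. Within the second it was 14.70 and 15.35 in TSA 2 and 3, 16.06 in Control 3 and 15.16 in AA 3. Markers of spermatogonia and Sertoli cells also split by set without overlap, at sums of 2674 to 3044 against 4261 to 6597 for spermatogonia and of 5092 to 5372 against 8974 to 13522 for Sertoli cells. Since Control has 2 libraries of the first set and TSA has 1, a difference between the 2 groups over all libraries holds part of the difference between the sets. Over all libraries 7 of 7 spermatogonia and 7 of 7 Sertoli markers were higher in TSA (medians 0.56 and 0.48, lowest adjusted limma p 0.886). Within the first set the spermatogonia sum was 3044 in TSA 1 and 2867 and 2839 in Control 1 and 2, and the Sertoli sum 5209 against 5278 and 5174. Within the second set the spermatogonia sums were 5452 and 6597 in TSA 2 and 3 and 4887 in Control 3, and the Sertoli sums 13522 and 12146 against 11480. None of these markers was at 0 everywhere. The part of cell makeup in the values of Suv39h1 and Suv39h2 was not tested. Spermatocyte markers, from the cells in meiotic prophase, had a mean log2 level of 12.17 to 12.77 in TSA and 12.17 to 12.97 in Control. Within the first set it was 12.45 in TSA 1 and 12.17 and 12.46 in Control 1 and 2. Within the second it was 12.77 and 12.17 in TSA 2 and 3 and 12.97 in Control 3. Replicate 3 also lay below replicate 2 in MTX (12.30 and 13.04) and HMS-I1 (12.07 and 12.775), but above it in AA (12.55 and 12.31).

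The ratio of Suv39h2 to Suv39h1 within a library was 5.19, 6.04 and 5.88 in Control. It was 4.17, 2.41 and 1.29 in TSA, which lie below the 3 Control ratios. In MTX it was 5.82, 9.69 and 3.50, in HMS-I1 6.27, 4.49 and 2.10, and in AA 5.38, 3.78 and 3.26, so that each of these reached into or past the Control range. The first library set spanned 4.17 to 6.27 over its 6 libraries and the second 1.29 to 9.69 over its 9. Within the second set, Suv39h1 was higher in replicate 3 than in replicate 2 in 4 of 4 treatments (by 0.68 on the log2 scale in MTX, 0.35 in HMS-I1, 0.05 in AA and 0.47 in TSA). Suv39h2 was lower in replicate 3 in 4 of 4, with differences of -0.78, -0.74, -0.17 and -0.44 in the same order. Pearson's r between the log2 levels of the 2 genes was -0.04 over the first set and -0.90 over the second. These are descriptions of libraries that share a scaling and a tissue, and replicate numbers are not known to mark a day or batch. Suv39h1 alone already set TSA apart from Control, so the ratio of the 2 genes is not separate evidence. The ratio of Setdb1 to Setdb2 was 3.49 to 7.57 in TSA and 3.40 to 4.93 in MTX, above 2.17 to 3.29 in Control. In HMS-I1 (2.75 to 6.09) and AA (2.26 to 3.75) it overlapped with Control. It also followed the library sets, at 2.17 to 3.49 over the first and 3.29 to 7.57 over the second. Control 1 and 2 are of the first set, so the separation holds part of the difference between the sets. The ratio of Ehmt2 to Ehmt1 overlapped, at 7.72 to 17.2 in TSA and 12.2 to 25.4 in Control. Pairs of other genes were not examined for such a separation.

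**Figure D3:**
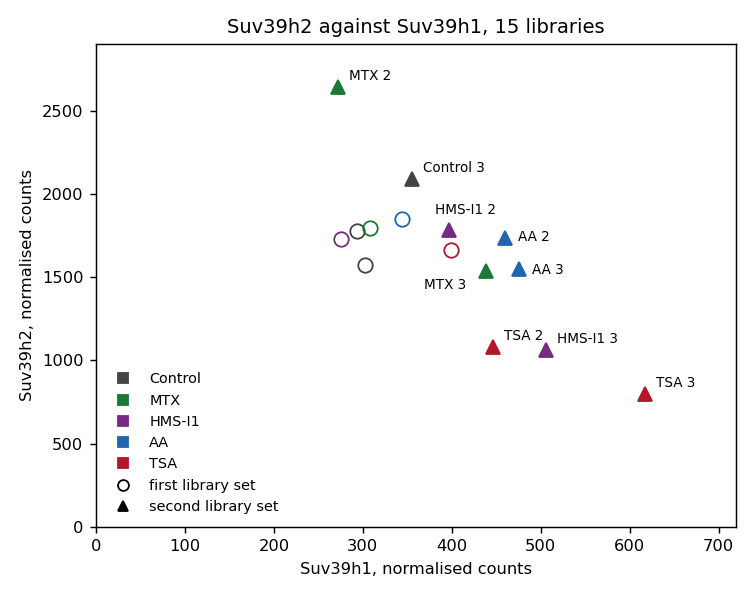
Normalised counts of Suv39h2 (y) against Suv39h1 (x), one point per library, with groups by colour, the first library set as open circles and the second as filled triangles with their names. The open circles lie close together (Suv39h2 1571 to 1850), and the triangles run from MTX 2 (272 and 2639) to TSA 3 (618 and 796).

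**Figure D4:**
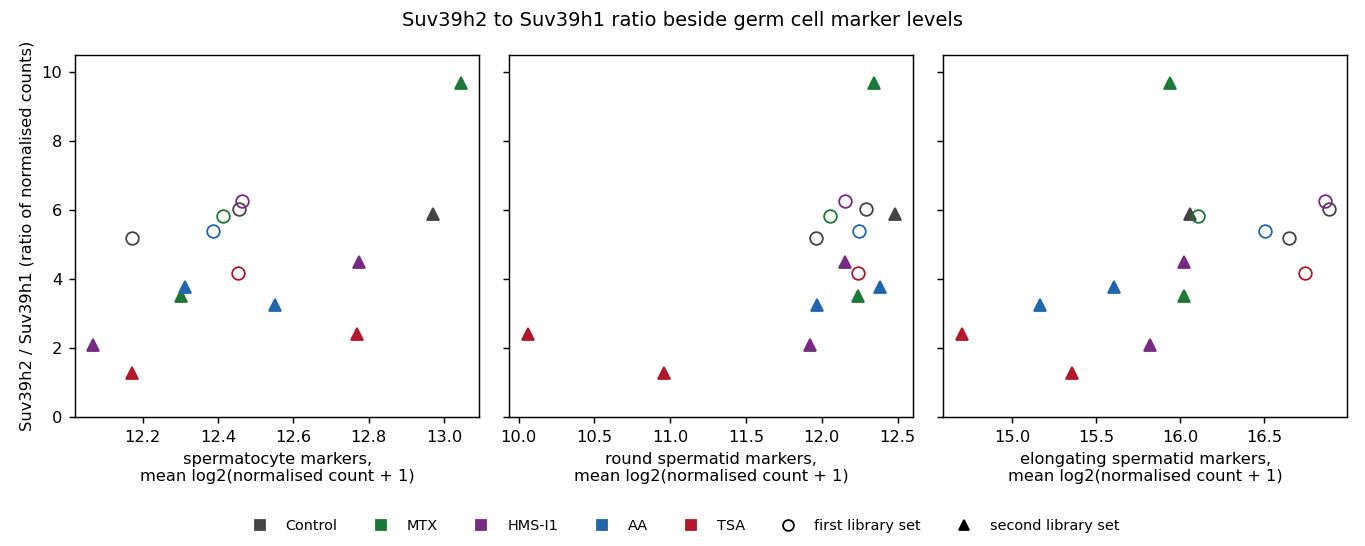
Ratio of Suv39h2 to Suv39h1 (y) against the mean log2(normalised count + 1) of spermatocyte, round spermatid and elongating spermatid markers (x, one panel each), one point per library. TSA 2 and TSA 3 have low ratios (2.41 and 1.29) and the lowest round spermatid levels (10.06 and 10.96). HMS-I1 3 has a ratio of 2.10 at the next lowest round spermatid level (11.92) and the lowest spermatocyte level (12.07). MTX 2 has the highest ratio (9.69) and the highest spermatocyte level (13.04), but Control 1 has a ratio of 5.19 at a spermatocyte level of 12.17. A link between ratio and markers was not tested.

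Ehmt1 (ENSMUSG00000036893, chromosome 2), the GLP subunit of the dimethylating complex, had 323, 489 and 404 normalised counts in Control and 391, 380 and 267 in MTX. The HMS-I1 libraries had 540, 457 and 353, the AA libraries 499, 379 and 647, and the TSA libraries 453, 636 and 456. The differences from Control were -0.23 for MTX (interval -0.84 to 0.38), 0.15 for HMS-I1 (-0.46 to 0.76), 0.31 for AA (-0.30 to 0.92) and 0.35 for TSA (-0.26 to 0.95), with SE 0.28 each. All treatments overlapped with Control. The 3 TSA libraries lay above the 3 MTX libraries, as did those of 1.94% of genes tested, with 1.99% wholly below (log2 difference 0.58, limma unadjusted p = 0.0613, adjusted p = 1). The group means ran from MTX, the lowest, through Control, HMS-I1 and AA to TSA. Within the first and second library sets the HMS-I1 difference from Control was 0.44 and -0.0083, and the AA difference 0.33 and 0.29. For MTX it was -0.02 and -0.34, and for TSA 0.19 and 0.41.

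Ehmt2 (ENSMUSG00000013787, chromosome 17), the G9a subunit, had 8205, 7328 and 4937 normalised counts in Control. MTX had 7360, 5292 and 6088, HMS-I1 7657, 5537 and 7684, AA 7205, 5543 and 4200, and TSA 7819, 4904 and 7221. The groups overlapped throughout, and the differences from Control (SE 0.28) were -0.11 in MTX, 0.04 in HMS-I1, -0.27 in AA and -0.03 in TSA, the last of which turned to 0.13 under quantile normalisation. The 4 intervals together reached from -0.88 (AA) to 0.65 (HMS-I1), so the libraries bound a change of this gene only to that extent, with the library sets mixed. The first library set held 7205 to 8205 and the second 4200 to 7684, a difference of the means of -0.43 on the log2 scale. Within the first and second sets the AA difference was -0.11 and -0.03, and the MTX difference -0.08 and 0.20. For HMS-I1 it was -0.02 and 0.40, and for TSA 0.01 and 0.27. The ratio of Ehmt2 to Ehmt1 ran from 6.49 in AA 3 to 25.4 in Control 1.

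Setdb1 (ENSMUSG00000015697, chromosome 3), the TRIM28-guided trimethylase, had 2114, 1650 and 2474 normalised counts in Control. TSA had 2003, 2913 and 3661, MTX 1844, 2783 and 2403, HMS-I1 1796, 2413 and 2799, and AA 1861, 2268 and 2687. The difference from Control was 0.44 for TSA (SE 0.28, interval -0.17 to 1.04, limma unadjusted p = 0.142, adjusted p = 0.886). It was 0.17 in MTX, 0.16 in HMS-I1 and 0.13 in AA. The 2 library sets did not overlap for this gene: the first spanned 1650 to 2114 and the second 2268 to 3661, with means 0.52 apart on the log2 scale. Within the sets the TSA difference was 0.10 in the first and 0.40 in the second, and the AA difference was -0.0055 and -0.0032. The MTX difference was -0.02 and 0.06, and the HMS-I1 difference -0.06 and 0.07, so that none of these 3 kept the size or direction of the value over all libraries in both sets.

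Setdb2 (ENSMUSG00000071350, chromosome 14) had 666, 761 and 753 normalised counts in Control. MTX had 541, 818 and 488, HMS-I1 652, 680 and 459, AA 823, 605 and 780, and TSA 574, 811 and 484. The differences from Control (SE 0.27) were -0.27 for MTX (interval -0.86 to 0.31), -0.30 for HMS-I1 (-0.88 to 0.28), 0.01 for AA (-0.57 to 0.59) and -0.25 for TSA (-0.84 to 0.33). That of AA turned to -0.013 under quantile normalisation. All groups overlapped with Control. Within the first and second library sets the MTX difference was -0.40 and -0.25, and the HMS-I1 difference -0.13 and -0.43. For AA it was 0.21 and -0.13, and for TSA -0.31 and -0.26. As for Suv39h2, replicate 3 lay below replicate 2 in MTX, HMS-I1 and TSA (-0.75, -0.57 and -0.75), but in AA it lay above (0.37). Pearson's r between Setdb2 and Ehmt2 was -0.35 over the first library set and -0.89 over the second. Among all pairs of members, this pair and the Suv39h pair had the r farthest from 0 over the second set. Over the first set that was Suv39h2 with Ehmt2, at -0.99 (-0.55 over the second). The first set has only 6 libraries, and these genes varied little in it (SD 0.084 and 0.070 on the log2 scale).

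Over the 6 genes, the median log2 difference from Control was -0.02 in MTX, 0.10 in HMS-I1, 0.07 in AA and 0.16 in TSA, with 3, 4, 4 and 3 genes above 0. Over all 17896 genes tested the medians were -0.01, -0.02, -0.02 and 0.01. The 4 comparisons share the Control libraries. Without TSA 1 the count of genes called in TSA against Control changed from 0 to 992, or 5.54% of genes tested, with 991 lower in TSA and 1 higher. Of the 6 members 0 were among them: Suv39h2 stood at -0.96 (adjusted p = 0.0959), Suv39h1 at 0.73 (adjusted p = 0.254) and Setdb1 at 0.67 (adjusted p = 0.242) in limma. Without TSA 1, TSA holds only libraries of the second set, while Control 1 and 2 are of the first. The genes called and these values thus hold part of the difference between the sets. Within the second set alone the TSA difference was -1.17 for Suv39h2, 0.56 for Suv39h1 and 0.40 for Setdb1.

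**Figure D5:**
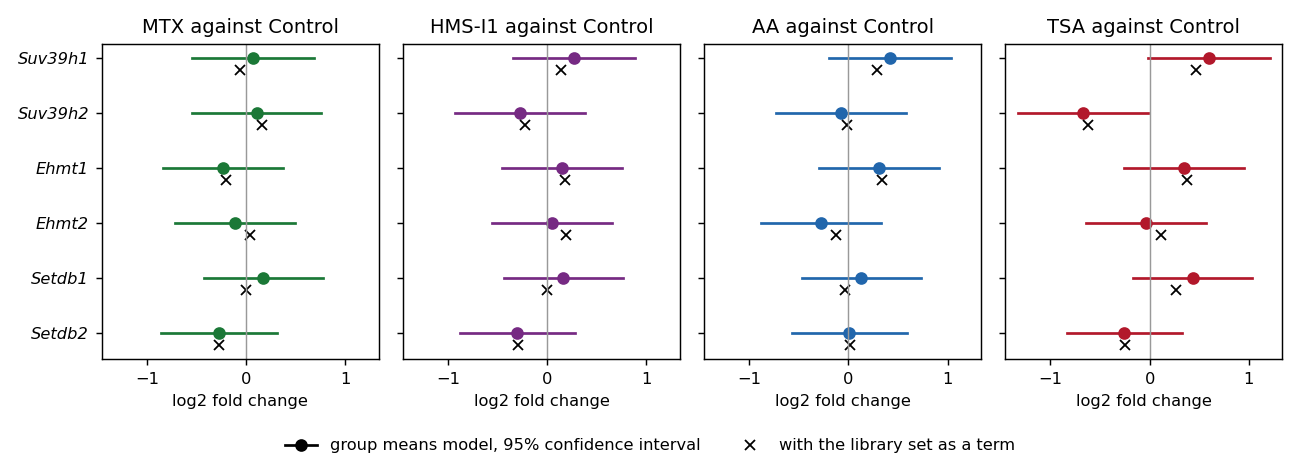
Log2 difference from Control of the 6 genes for each of the 4 treatments (points) with 95% intervals from limma (bars). Of the 24 intervals, that of Suv39h2 in TSA (-1.33 to -0.02) lies wholly on one side of 0, and its adjusted p is 0.871.

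Of the other genes of the H3K9 methylation pathway, 27 in 4 lists, all were tested and 0 passed in any comparison with Control. The 9 cofactors of the methyltransferases had medians of 0.09 in MTX, -0.13 in HMS-I1, -0.06 in AA and 0.04 in TSA. Trim28, the corepressor that recruits SETDB1, had 9813, 8806 and 9445 normalised counts in Control, 7707, 7296 and 6785 in MTX, and 8530, 5276 and 6495 in AA. These MTX and AA libraries all lay below the 3 Controls, as did those of 1.15% and 2.23% of genes tested. The log2 difference was -0.37 in MTX (SE 0.19, limma unadjusted p = 0.0797, adjusted p = 1). In AA it was -0.49 (SE 0.19, limma unadjusted p = 0.0234, adjusted p = 1). In TSA the gene had 9700, 9838 and 9487, within or just above the Control range. The cofactors nearest to the threshold in TSA were Pphln1, a periphilin of the silencing complex HUSH (-0.60, SE 0.40), and Morc2a, an ATPase that works with HUSH (0.35, SE 0.24). In HMS-I1 they were Fam208a, the HUSH subunit also called Tasor (-0.58, SE 0.55), and Zfp644, a zinc finger partner of the G9a complex (-0.44, SE 0.46). Fam208a had 4338, 2633 and 1255 in HMS-I1 and 4251, 4267 and 2657 in Control. Zfp644 had 4765, 3143 and 1605 against 3942, 4914 and 3092. For both, HMS-I1 1 and 2 lay near the Controls of their own library set, with HMS-I1 3 below. Replicate 3 was also low in MTX and TSA, at 1390 and 1449 for Fam208a and 2414 and 1449 for Zfp644. In AA 3 they had 2616 and 3004, near Control 3. Pphln1 had 2588, 910 and 1179 in TSA and 2336, 2697 and 1541 in Control, so TSA 1 lay among the Controls.

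The 6 readers of H3K9 methylation had medians of 0.04, -0.01, -0.05 and -0.03 in MTX, HMS-I1, AA and TSA. Cdyl, a chromodomain protein that binds methylated H3K9, gave the largest difference of the list, -1.69 in TSA (SE 0.52, limma unadjusted p = 0.00673, adjusted p = 0.848). Its normalised counts were 8727, 9407 and 12868 in Control and 8870, 1147 and 3103 in TSA, so that TSA 1 lay within the Control range and TSA 2 and 3 far below it. These are the 2 libraries with low round spermatid markers, and the part of those cells in the value was not tested. The 3 PRDM genes linked to H3K9 had medians of -0.78, -0.13, 0.09 and 0.14. Mecom, a PRDM-family zinc finger gene, was low in all libraries (11 to 65 normalised counts) and gave -1.15 in MTX (SE 0.65, limma unadjusted p = 0.0993, adjusted p = 1). It had 13, 11 and 22 in MTX and 36, 62 and 16 in Control, so MTX 2 and 3 lay on both sides of Control 3.

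The 9 H3K9 demethylases, the enzymes that act against the 6 members, had medians of 0.04 in MTX, 0.08 in HMS-I1, 0.04 in AA and 0.20 in TSA. Kdm4a, which removes trimethylation, had 614, 691 and 721 normalised counts in Control and 757, 868 and 1022 in AA, above all 3 Controls as 2.81% of genes tested were (log2 difference 0.38, SE 0.28, limma unadjusted p = 0.196, adjusted p = 1). Phf2, a demethylase with a PHD finger, gave 0.59 in TSA (SE 0.39, limma unadjusted p = 0.159, adjusted p = 0.886). Its values were 1079, 2605 and 2540 in TSA and 1308, 1018 and 1570 in Control. Phf2 was also lowest in replicate 1 of MTX (964, 1912 and 1792), HMS-I1 (1091, 2413 and 2020) and AA (1133, 1264 and 1438). Those replicates belong to the first library set.

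The genes whose levels ran most like those of each member were sought among 13351 genes by Pearson's r over the 15 libraries, after the mean of each library set was subtracted. For Suv39h1 they were Osbpl5 (r = 0.95) and Hacd3 (0.95), where the first set alone gave 0.84 and 0.85, and the second alone 0.98 and 0.98. For Suv39h2 they were Sypl and Slxl1 (0.98 and 0.98), with 0.77 and 0.62 in the first set and 0.99 and 0.98 in the second. Ehmt1 ran with Fkbp15 (0.93) and Map2k4 (0.91), at 0.95 and 0.77 in the first set and 0.93 and 0.96 in the second. Ehmt2 ran with Cyhr1 (0.96) and Mroh8 (0.96), at only 0.69 and 0.49 in the first set against 0.97 and 0.98 in the second. Setdb1 ran with Dnajc11 (0.91) and U2af2 (0.89), at 0.88 and 0.75 in the first set and 0.92 and 0.93 in the second. Setdb2 ran with Kmt5a (0.95), which encodes the H4K20 monomethyltransferase, and Zfp229 (0.94), at 0.89 and 0.85 in the first set and 0.97 and 0.97 in the second. None of the 6 members was among the nearest 2 genes of another.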

How the data were processed

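Total RNA from whole testes of 15 mouse libraries was sequenced. Reads were handled with DESeq2 1.34.0, Salmon 0.12.0 and FastQC 0.11.9 on build GRCm39, per the submitters' processing notes. Their order and settings are not given in the sources used here. The authors deposited one table of normalised counts, a signal scaled between libraries and not whole, so a count test was not used. Its depth is unknown: the commonest low value was 1.98 to 2.62 in the first library set and 0.453 to 0.917 in the second, but only 4.89 to 11.0% of low values lay on its multiples (within 0.01 of a step), so whole reads were not recovered. Intervals cover the spread between libraries only.

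Of 36118 Ensembl identifiers, 35825 matched a symbol and 293 did not. limma 3.58.1 (R 4.3.3) was run on log2(normalised count + 1) for 17896 genes whose mean reached 10, with one mean per group, 10 residual degrees of freedom, trended empirical Bayes, two-sided tests and Benjamini-Hochberg adjustment (threshold 0.05). A difference on this scale understates that of low genes. The script was checked on simulated data. Groups came from the titles. The 2 library sets were split at the largest gap in the mean of 60 histone genes. Lengths came from the GENCODE M21 annotation (GRCm38), and promoters from RefSeq (GRCm38.p6).

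All 6 members were named in every comparison. Of 4 pathway lists, genes that passed were to be named, and where none did up to 2 with the smallest p. The 2 genes nearest to each member had the highest r among genes with a mean of at least 50 and an established symbol. The members and lists were chosen with earlier results of these data known. Replicate numbers recur in the groups, but 26 of 30 same-numbered pairs had a correlation over 0.1, not all, so they were not used as pairs. The rest joined Control 2, of the first library set, to replicate 2 of each treatment, of the second (r -0.58 to -0.30). Alternatives were other pseudocounts and filters, quantile normalisation, a library set term, a replicate block, library weights, fits of fewer groups or libraries and, chosen after seeing the data, the second library set alone.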

Additional observations from a re-analysis of the deposited data

How the results depend on the processing

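The 10 comparisons and the F-test called 0 genes with pseudocounts of 0.5 and 10, with a mean of at least 50 or no filter, under quantile normalisation, with the library set as a term, with the replicate block and with both. The replicate block left Suv39h1 at 0.60 (SE 0.19, limma adjusted p = 0.247) and Suv39h2 at -0.68 (SE 0.26, adjusted p = 0.274) in TSA against Control, and 11 of 15 libraries correlated best with one of their own number; it changed no call. Fits of only the 2 groups compared called 1 gene for MTX, 2 for AA and 1 for TSA against Control, 2 for AA and 1 for TSA against MTX, and 1 for TSA against AA. Library weights, whose estimation did not converge (AA 2 weighed 38.8, the others 0.230 to 2.92), called 6645 genes for AA and 4234 for TSA against Control (37.1% and 23.7% of genes tested), 3092 for TSA against AA and 5640 in the F-test. Of the 6 members they called 2 in AA, Suv39h1 (0.59) and Ehmt2 (-0.45), and 3 in TSA, Suv39h1 (0.86), Suv39h2 (-0.89) and Setdb1 (0.74). The second library set alone, where the lone Control is assumed to vary like the other groups, called 7 genes for TSA against Control. Against MTX it called 4 for TSA, 3 for AA and 2 for HMS-I1, and it called 7 for TSA against HMS-I1, 6 for TSA against AA and 6 in the F-test. Leaving out each library gave 0 to 1 genes for each of MTX, HMS-I1 and AA against Control and for HMS-I1 against MTX, 0 to 992 for TSA against Control, 0 to 767 for TSA against MTX, 0 to 537 for TSA against HMS-I1, 0 to 616 for TSA against AA and 0 to 246 in the F-test, with the highest counts in these last 5 without TSA 1. Without TSA 1, TSA holds only libraries of the second set, so these counts hold part of the difference between the sets.

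Of 408 alternative values of the members' 24 differences from Control, 39 changed sign; these belonged to 11 differences, none over 0.17 in size. Quantile normalisation gave Setdb2 -0.013 in AA and Ehmt2 0.13 in TSA. The library set as a term gave Suv39h1 -0.058 and Ehmt2 0.041 in MTX, Setdb1 -0.0058 in HMS-I1 and -0.038 in AA, and Ehmt2 0.12 in TSA. With the replicate block as well, Ehmt2 was at 0.078 and Setdb1 at -0.038 in MTX, Setdb1 at -0.046 in HMS-I1 and -0.079 in AA, Setdb2 at -0.057 in AA and Ehmt2 at 0.15 in TSA. Library weights gave Ehmt2 -0.20 in HMS-I1, Suv39h2 0.049 and Setdb2 -0.20 in AA. The second set alone gave Suv39h1 -0.040, Suv39h2 -0.055 and Ehmt2 0.20 in MTX, Ehmt1 -0.0083 in HMS-I1, Setdb1 -0.0032 and Setdb2 -0.13 in AA, and Ehmt2 0.27 in TSA. Leaving out 1 library gave ranges of -0.13 to 0.22 for Suv39h1, -0.12 to 0.27 for Suv39h2 and -0.33 to 0.041 for Ehmt2 in MTX, -0.0043 to 0.31 for Ehmt1 and -0.17 to 0.20 for Ehmt2 in HMS-I1, -0.17 to 0.032 for Suv39h2, -0.026 to 0.27 for Setdb1 and -0.078 to 0.14 for Setdb2 in AA, and -0.25 to 0.17 for Ehmt2 in TSA. The differences of Suv39h1 (0.42 to 0.73) and Suv39h2 (-0.96 to -0.43) in TSA kept their direction without any 1 library. The cause of these changes was not tested.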
